A study of Mus musculus with 4 samples.

Results

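CD8 T cells were compared with CD4 T cells on the arrays labelled as Gfi1 knockout, in a series that also held a pair labelled wildtype. The comparison used 2 of the 4 arrays, chosen by their titles and not by any measured value: 1 array of CD4 cells and 1 of CD8 cells. Cells of both subsets came from the spleens of untreated C57Bl/6 mice that lacked Gfi1 according to the labels, and had been sorted by flow cytometry after staining of CD4, CD8 and CD44. Both source labels give the cells as low in CD44, a receptor for hyaluronan that is scarce on naive T cells. The RNA of 2 mice was pooled on each array, so neither array stands for a single animal and no spread between animals was measured. The sources used here do not say whether the same mice gave both subsets, how old they were, or how the knockout was made. The other 2 arrays hold the same subsets from mice labelled wildtype, and their values are given below for comparison. They also enter the signal floor and the choice of probe set, which were taken over all 4 arrays. Titles end in N in the pair labelled knockout and in M in the pair labelled wildtype. The sources used here do not explain these letters. They run with the genotype label, so what they stand for cannot be told apart from it.

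CD4 and CD8 T cells arise from a common precursor in the thymus that carries both coreceptors, which bind major histocompatibility complex (MHC) class II and class I molecules respectively. Zbtb7b (ThPOK) holds cells in the helper lineage, and the Runx factors silence Cd4 in the cytotoxic lineage. Mature CD8 cells leave the thymus with parts of a killer cell program, while CD4 cells carry costimulatory receptors for giving help and include the Foxp3-positive regulatory cells. The arrays address which of these lineage differences were present in cells sorted as resting.

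Values are signal intensities of Affymetrix probe sets, on a linear scale and with a common trimmed mean on every array. Gfi1, which encodes a DNA-binding repressor active in blood stem cells and lymphocytes, read 2891 on the CD4 array and 2447 on the CD8 array, against 2272 and 1158 on the arrays labelled wildtype. The targeted gene was thus not lower under the knockout label, and the sources used here do not say where its probes lie relative to the deleted part. All genotype names below are therefore those of the labels. Cd44 read 196 and 252 in the pair labelled knockout and 8136 and 5740.3 in the pair labelled wildtype, although all 4 samples are labelled low in CD44. The pair labelled knockout is thus the pair with low Cd44 signal. Median signal was 189 on its CD4 array and 193 on its CD8 array, and 58.4% and 58.7% of probe sets lay above a floor of 93.9, the 40th percentile of all values. The 5′ probe set for 18S ribosomal RNA differed, at 3562 on the CD4 array and 525 on the CD8 array.

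With 1 array a side there is no test, and a difference is called only by its size. Signals under the floor were raised to it, so a fold against a floored signal is a minimum and is written as "at least". The precision can be judged only from genes with several probe sets: over 2853 such genes, the log2 difference between CD8 and CD4 had a pooled SD of 0.27 between the probe sets of a gene, with a median SD of 0.16 and a 95th percentile of 0.53. This spread covers probes and not mice. As these are bulk samples, fewer cells of a type and less RNA per cell cannot be told apart.

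The arrays of the subsets were close to each other outside a small number of genes. Pearson's r was 0.975 across 12539 probe sets, which are not independent replicates. Among the 7062 genes above the floor on both arrays, 89.0% lay within 1.5-fold, the quartiles of the log2 difference were -0.20 and 0.20, and the median was -0.01. Either array, or both, exceeded the floor for 7826 genes. The same rule decides which list members are counted as above the floor below, so some entered only through the array where they were higher. Of these, 277 (3.54%) were 2-fold or more apart: 167 (2.13%) higher and 110 (1.41%) lower in CD8 cells. At 1.5-fold the counts were 550 (7.03%) higher and 441 (5.64%) lower, 991 (12.7%) in all. Large differences lay mostly on the CD8 side: at 4-fold there were 37 higher (0.473%) and 9 lower (0.115%), and at 8-fold 13 higher (0.166%) and 1 lower (0.0128%), Cd4 itself. Of the genes at least 2-fold apart, 60.3% were higher in CD8 cells (95% Wilson interval 54.4% to 65.9%, which treats genes as independent and covers counting error only).

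**Figure D1:**
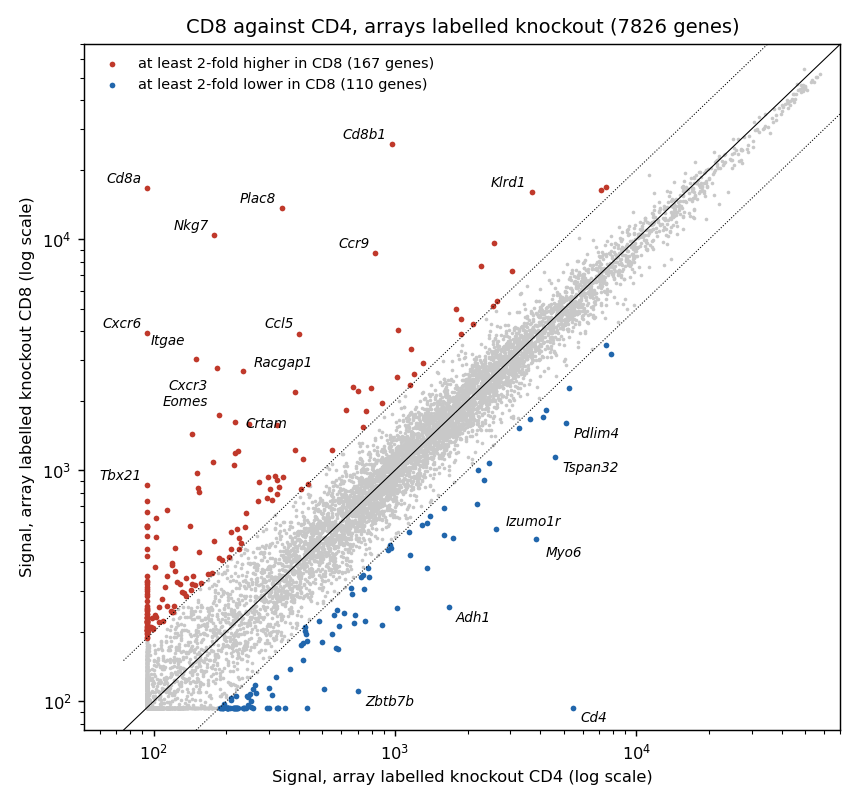
Signal of each of 7826 genes on the array labelled knockout CD4 (x axis, log scale) and on the array labelled knockout CD8 (y axis, log scale), with values under 93.9 drawn at that floor. Solid line: equality; dotted lines: 2-fold; the 167 genes higher in CD8 (red) reach farther from the diagonal than the 110 lower ones (blue), apart from Cd4.

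The coreceptors matched the sort labels. Cd4, the coreceptor for MHC class II, read 5469.8 on the CD4 array and 8.4 on the CD8 array, a signal at least 58.3-fold lower in CD8 cells, and its second probe set read 1379 and 8.4. Cd8a, the alpha chain of the coreceptor for MHC class I, read 89.6 and 16639, at least 177-fold higher in CD8 cells. Cd8b1, the beta chain of the same coreceptor, read 971 and 25715 (26.5-fold). The beta chain was therefore above the floor on the CD4 array while the alpha chain was not, and on the CD4 array labelled wildtype it read 312.

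Among 23 transcription factors of the T cell lineage above the floor, 2 were at least 2-fold higher in CD8 cells and 2 were at least 2-fold lower. Over all genes these shares were 2.13% and 1.41%. Of the factors, 15 (65.2%) lay within 1.5-fold, against 87.3% of all genes. Their median log2 difference was -0.13 against -0.01 over all genes. Zbtb7b read 701 in CD4 and 110.4 in CD8 cells, a signal 6.35-fold lower in CD8, and the other probe set of the gene read 886 and 31.7. Foxp3, the factor that defines regulatory T cells, read 221 and 62.3 (at least 2.36-fold lower). Both are factors of CD4 cells, and no other factor of the list was past 2-fold on the CD4 side.

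On the CD8 side stood the T-box factors, which drive the killer and memory programs of CD8 cells. Eomes read 187 in CD4 and 1741 in CD8 cells (9.34-fold), and its second probe set 219 and 1218. Tbx21 (T-bet) read 65.6 and 864 (at least 9.2-fold). Runx3, the Runx factor of the CD8 lineage, gave a weak signal of 101 in CD4 and 162 in CD8 cells, a 1.61-fold difference on a probe set near the floor in both. Its relative Runx1, which acts in both lineages, was lower in CD8 cells on all 5 of its probe sets, with 778 and 459 on the one used (1.7-fold lower).

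Factors with smaller differences included Bcl11b, needed for commitment to the T cell lineage, at 8966 in CD4 and 5522 in CD8 cells (1.62-fold lower). Myb, a factor of thymocyte survival and of CD8 memory, stood the other way at 1130.1 and 1710 (1.51-fold higher). Id2 and Id3 inhibit the E proteins and favour the effector and the memory fate respectively. Id2 read 2942 and 4259, 1.45-fold higher in CD8 cells, and Id3 read 1639 and 2355, 1.44-fold higher. Gata3, a helper lineage factor upstream of Zbtb7b, read 869 in CD4 and 662 in CD8 cells (1.31-fold lower). Tox, Satb1, Ets1, Lef1, Zeb1, Ikzf1 and Cbfb all lay within 1.5-fold; Satb1, an organiser of chromatin in thymocytes, read 14385 and 13119, and Lef1, a factor of the naive state, 4419 and 4285. Cbfb, the partner of all Runx factors, read 7153 and 7125.

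**Figure D2:**
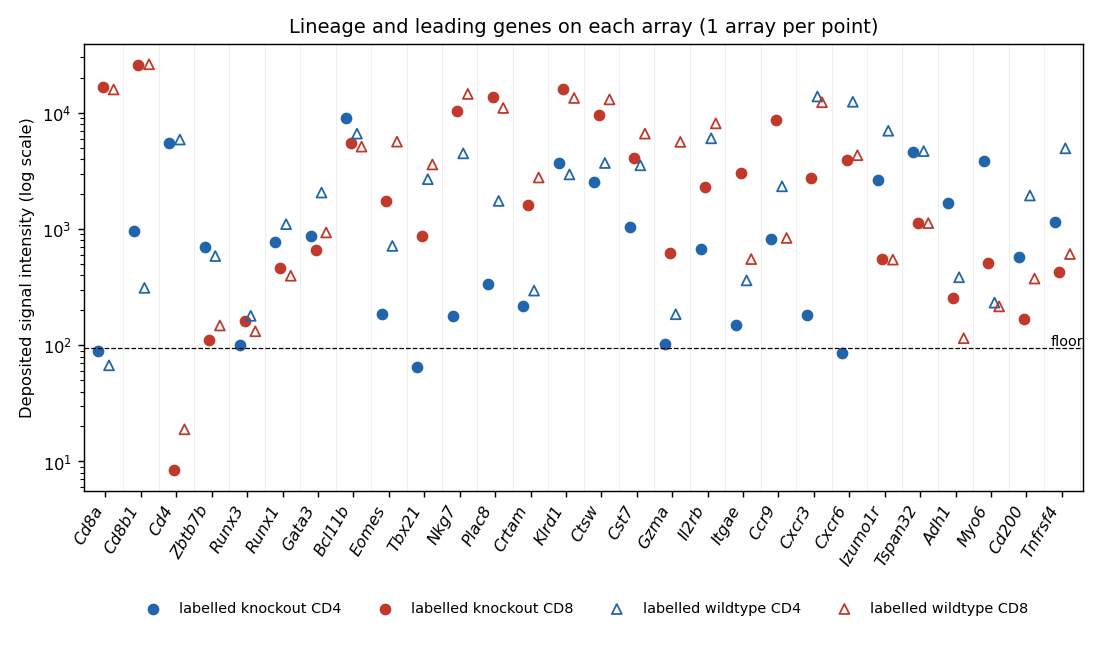
Signal on each of the 4 arrays (y axis, log scale) for coreceptors, lineage factors and genes that lead the comparison; 1 point per array, with no error bar because each group has 1 array. Filled circles are the pair labelled knockout and open triangles the pair labelled wildtype; Cxcr3 is far apart in the filled pair and not in the open pair, Cxcr6 is higher in CD8 in the filled pair and lower in CD8 in the open pair, and Cd4, Cd8a, Zbtb7b and Tspan32 lie at like positions in both.

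Many genes of cytotoxic cells were higher in CD8 cells. The list had 24 members above the floor, of which 14 were 2-fold or more higher in CD8 cells and 1 was lower. Over all genes these shares were 2.13% and 1.41%. The list had a median log2 difference of 1.22. Among those higher, Gzmb, Gzmk, Gzmm, Klrc1 and Xcl1 were counted through the CD8 array alone, being under the floor on the CD4 array. A further 6 members were at or under the floor on both arrays. The list was chosen with results of these arrays known, so its count is a description. Nkg7, a membrane protein of cytotoxic granules, had the largest fold among genes above the floor on both arrays, at 179 in CD4 and 10407 in CD8 cells (58.3-fold). Plac8, a small cysteine-rich protein of haematopoietic cells, followed at 339 and 13636 (40.2-fold). Neither gene has a second named probe set on the array.

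Chemokines and surface receptors of killer cells stood with them. Ccl5 (RANTES), a chemokine stored by CD8 memory cells, read 399.6 and 3909 (9.78-fold), and Xcl1 (lymphotactin), which attracts cross-presenting dendritic cells, 50.7 and 567 (at least 6.04-fold). Crtam, a nectin-like adhesion receptor of killer cells, read 217 and 1615 (7.46-fold). Klrd1 (CD94), the common chain of the NKG2 receptors, was already well above the floor in CD4 cells at 3695 and reached 15979 in CD8 cells (4.32-fold). Its partner Klrc1 (NKG2A) read 1.1 and 260 (at least 2.77-fold), and Cd160, a receptor for the herpesvirus entry mediator, 215 and 1055 (4.91-fold). Cd7, an immunoglobulin-family receptor of T and natural killer cells, read 2269.6 in CD4 and 7680.2 in CD8 cells (3.38-fold).

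Granule contents were uneven. Cst7 (cystatin F) and Ctsw (cathepsin W), an inhibitor and a member of the cysteine cathepsins in killer cells, read 1034 and 2561 in CD4 cells and 4057 and 9639.7 in CD8 cells, 3.92-fold and 3.76-fold higher. Gzma (granzyme A) read 103 and 621 (6.04-fold), Gzmb 2.6 and 229.6 (at least 2.45-fold), and Gzmk 84.4 and 208 (at least 2.21-fold). Gzmm read 89.5 in CD4 and 190.1 in CD8 cells (at least 2.02-fold), and in the pair labelled wildtype 79.9 and 4443. Perforin (Prf1), the pore-forming protein of the granules, did not separate the subsets: its signal was 1375 in CD4 and 1214 in CD8 cells, whereas the pair labelled wildtype had 314 and 2170.4. Srgn (serglycin), the proteoglycan that packs granules, was also level at 19286 and 19634, and Ifng read 24.6 and 123. The killer list member on the opposite side was Fasl, the ligand of the death receptor Fas, at 325 in CD4 and 61 in CD8 cells (at least 3.46-fold lower in CD8).

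Defining markers of natural killer cells were low on both arrays. Of 6 list members named on the array, 4 were at or under the floor on both, Ncr1 among them. Over all genes, 4567 of 12393 were at or under it on both. Tyrobp, an adaptor of natural killer receptors, read 97.5 in CD4 and 10.3 in CD8 cells. The summed signal of the list was 294 on the CD4 array and 65.7 on the CD8 array, most of it from Fcer1g and Tyrobp. The list holds 10 markers, and those not named on the array include Klrb1c and Klre1. The part of natural killer cells in the signal of the killer genes was not tested.

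Receptors that place T cells in tissues gave some of the largest differences of all. Cxcr6, the receptor of Cxcl16, read 85.7 in CD4 and 3917 in CD8 cells (at least 41.7-fold). Cxcr3, the receptor of the interferon-induced chemokines Cxcl9 and Cxcl10, read 183 and 2774 (15.1-fold). Itgae (CD103), the integrin chain that binds E-cadherin on epithelium, read 150.3 and 3018 (20.1-fold). Ccr9, the receptor that directs cells to the small intestine, read 824 and 8689.7 (10.5-fold). All 4 were thus more than 10-fold apart.

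The other homing and adhesion genes differed less. Of 30 list members above the floor, 5 were higher and 1 was lower in CD8 cells by 2-fold or more. Over all genes these shares were 2.13% and 1.41%. Within 1.5-fold lay 21 members (70.0%), against 87.3% of all genes, and the list median was 0.09. Ccr10, a skin-homing receptor, was the fifth at 242 and 651 (2.69-fold), and Icam1, a ligand of the integrin LFA-1, read 2627 and 4906 (1.87-fold). Itgb3, the beta chain of the vitronectin receptor, was the one on the CD4 side at 242 and 50.4 (at least 2.57-fold lower in CD8). Receptors of lymph node entry and exit were near level. Ccr7, which brings naive cells into lymph nodes, read 15625 in CD4 and 12549 in CD8 cells, S1pr1, which lets them leave, 5523 and 4532, and their regulator Klf2 15207 and 12817. Itgb7, the partner chain of Itgae, read 11001 and 9069.9 (1.21-fold lower), so the difference in Itgae was not shared by its partner.

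Of 25 memory and effector genes above the floor, 10 were at least 2-fold higher in CD8 cells and none was at least 2-fold lower. Over all genes 2.13% were that much higher and 1.41% that much lower. The median log2 difference of the list was 0.81. The list shares Cxcr6, Cxcr3, Ccl5, Eomes and Tbx21 with the groups above, so its count is not separate from theirs. Its further members on the CD8 side were Ahnak, a very large scaffold protein of the cell membrane, at 249 and 1593 (6.41-fold) on 1 of its 4 probe sets, and Ctla2a and Ctla2b, small inhibitors of cathepsins. The other 3 probe sets of Ahnak were under the floor on both arrays, and the mean over its probe sets gave a log2 difference of 0.67. Ctla2a read 218 in CD4 and 1186 in CD8 cells (5.43-fold), and Ctla2b 83.3 and 330.1 (at least 3.52-fold); the genes are close relatives and their probes may share signal. Glipr2, a protein of the Golgi membrane, read 1017 and 2535 (2.49-fold).

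Over the list, 14 members were at least 1.5-fold higher in CD8 cells, 2 were as far lower and 9 lay within 1.5-fold. Over all genes these shares were 7.03%, 5.64% and 87.3%. S100a6, a calcium-binding protein of activated and memory cells, read 244 and 451 (1.85-fold higher). Lgals3 (galectin-3) read 100.3 and 176 (1.75-fold higher), and Anxa2, an annexin that binds membranes, 491 and 759 (1.55-fold higher). Among the bright members within 1.5-fold, Vim (vimentin) read 11549 and 11771, Crip1, a LIM protein, 15646 and 16971, and Lgals1 (galectin-1) 17552 and 21696. S100a4, a calcium-binding protein of memory cells, stood on the CD4 side at 317 and 166 (1.91-fold lower in CD8). Cd44 was 1.29-fold higher in CD8 cells at the low signals given above.

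Receptors for cytokines included the beta chain shared by the IL-2 and IL-15 receptors, which supports CD8 memory cells. Il2rb read 673 in CD4 and 2304 in CD8 cells (3.42-fold), and Il15ra, the private chain of the IL-15 receptor, 117 and 204 (1.75-fold). Il18r1 and Il18rap, the chains of the IL-18 receptor, were also on the CD8 side, Il18r1 at 3535 and 6269 (1.77-fold) and Il18rap at 9.3 and 180.3 (at least 1.92-fold). Il7r, the survival receptor of resting T cells and a reported target of Gfi1, was level at 23352 and 23447. Il10ra read 134 and 295 (2.21-fold), but another probe set of the gene had the opposite sign.

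The interferon-gamma receptor chains stood on opposite sides, Ifngr1 at 2503 in CD4 and 4294 in CD8 cells (1.72-fold higher) and Ifngr2 at 958 and 474 (2.02-fold lower). Il4ra, the receptor chain shared by IL-4 and IL-13, read 3068 and 1681 (1.83-fold lower in CD8), and in the pair labelled wildtype 958 and 2365, on the other side. In all, 2 of 23 measured cytokine receptors were higher and 1 was lower in CD8 cells by 2-fold or more. Over all genes these shares were 2.13% and 1.41%. Downstream, 19 of 20 Janus kinase, STAT and SOCS genes lay within 1.5-fold (95%, against 87.3% of all genes), and Stat4, the transducer of IL-12 signals, was the exception at 4340.2 and 6651 (1.53-fold higher).

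Promoter sequences were examined for the Runx core motif, because Runx factors set the choice between the lineages; the motif was TGTGGT on either strand, searched in the 250 bases before each RefSeq gene start (GRCm38.p6). It was present in 4614 of 32851 windows (14.0%), in 883 of 8249 windows of genes above the floor (10.7%), and in 12 of 32 windows (37.5%) of genes at least 4-fold higher in CD8 cells, which belong to 27 of the 37 such genes. Among genes at least 4-fold lower it was present in 5 of 12 windows (41.7%), of 8 genes, and among lineage factors in 2 of 37 windows (5.41%), 1 each of Zbtb7b and Runx3. At 2-fold, the shares were 34 of 160 windows (21.2%) for genes higher and 13 of 118 (11.02%) for genes lower in CD8 cells. Windows of a gene can overlap, the groups are small and no test was made, and a match of 6 letters is a description and not a bound site. The windows below are 1 each of Nkg7, Plac8 and Cxcr3, far higher in CD8 cells, and of Tspan32, 4-fold lower and about equally so in both pairs. All of them were taken from the windows that hold the motif, so its presence in them is no result. Most windows of genes at least 4-fold higher do not, those of Ccr9, Eomes and Tbx21 among them. Each window is printed 5′ to 3′ along the gene's strand with the motif or its reverse complement in capitals.
Nkg7, chr7:43436888-43437137, plus strand: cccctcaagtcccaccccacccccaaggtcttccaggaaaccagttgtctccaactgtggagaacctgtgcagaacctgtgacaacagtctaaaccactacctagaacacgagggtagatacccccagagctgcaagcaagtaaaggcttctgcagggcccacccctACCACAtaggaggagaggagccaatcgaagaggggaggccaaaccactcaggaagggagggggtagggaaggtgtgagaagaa
Plac8, chr5:100572206-100572455, minus strand: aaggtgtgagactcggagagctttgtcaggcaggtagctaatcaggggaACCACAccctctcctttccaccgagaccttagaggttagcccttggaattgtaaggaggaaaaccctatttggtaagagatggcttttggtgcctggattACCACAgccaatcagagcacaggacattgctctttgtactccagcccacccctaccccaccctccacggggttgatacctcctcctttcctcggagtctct
Cxcr3, chrX:101734148-101734397, minus strand: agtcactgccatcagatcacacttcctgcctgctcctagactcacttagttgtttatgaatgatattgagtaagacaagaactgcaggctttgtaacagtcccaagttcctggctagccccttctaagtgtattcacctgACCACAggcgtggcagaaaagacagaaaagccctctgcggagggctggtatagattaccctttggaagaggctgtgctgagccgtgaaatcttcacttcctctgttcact
Tspan32, chr7:143004796-143005045, plus strand: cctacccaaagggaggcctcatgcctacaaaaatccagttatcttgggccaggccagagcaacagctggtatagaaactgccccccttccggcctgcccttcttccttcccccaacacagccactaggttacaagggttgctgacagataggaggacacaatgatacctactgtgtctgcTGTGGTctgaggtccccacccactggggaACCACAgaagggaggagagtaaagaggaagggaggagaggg
The Plac8 window shown holds 2 matches, whereas another window of that gene holds none. Tspan32 holds 1 on each strand. By the counts given before the sequences, the motif stands both before genes with higher and before genes with lower signal in CD8 cells.

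On the CD4 side, 5 of 23 measured genes of costimulation and help were lower in CD8 cells by 2-fold or more. None was higher by as much. Over all genes 1.41% were that much lower and 2.13% that much higher. The median log2 difference of the list was -0.52. Izumo1r (folate receptor 4), a surface marker of regulatory and of unresponsive CD4 cells, read 2629 in CD4 and 555 in CD8 cells (4.73-fold lower). Cd81, a tetraspanin, read 1016 and 254 (4-fold lower), and Cd200, an inhibitory ligand, 580 and 169 (3.44-fold lower). Tnfrsf4 (OX40), a costimulatory receptor of the TNF family, read 1157 and 429 (2.7-fold lower), and Slamf1, a self-ligand of T cells, 1138 and 539 (2.11-fold lower).

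Several receptors that tune the T cell receptor were lower in CD8 cells by less than 2-fold. Cd5 read 6550.2 and 3349 (1.96-fold lower), Cd28, the main costimulatory receptor, 7168 and 5282 (1.36-fold lower), and Trat1, an adaptor, 3224 and 1684 (1.91-fold lower). Icos, a costimulatory receptor of follicular helper cells, read 1296 in CD4 and 895 in CD8 cells (1.45-fold lower). Cd40lg, the activation-induced ligand by which helper cells stimulate B cells, was weak at 135 and 34.9 (at least 1.44-fold lower). Il2, Il4 and Il21, cytokines of activated helper cells, were at or under the floor on both arrays.

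Genes of regulatory T cells overlapped this group. Of 16 measured, 4 were lower in CD8 cells by 2-fold or more and 2 were higher, with a median of -0.39. Over all genes these shares were 1.41% and 2.13%. The 4 lower ones were Foxp3, Izumo1r and Tnfrsf4, given above, and Gpr83, a G protein-coupled receptor, at 549.7 and 196 (2.81-fold lower). Ctla4, an inhibitory receptor of regulatory cells, read 585 in CD4 and 368 in CD8 cells (1.59-fold lower), and Il2ra was under the floor on both arrays. The 2 on the CD8 side do not mark regulatory cells alone: Itgae, given above, and Nt5e (CD73), an enzyme that makes adenosine, at 154 and 443 (2.88-fold).

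Other genes lower in CD8 cells fell outside these lists. Myo6, a myosin that moves towards the minus end of actin filaments, read 3855 in CD4 and 507 in CD8 cells (7.61-fold lower), and its other probe sets read 1505 and 116, and 526 and 56. On the arrays labelled wildtype the gene read 233 and 216, so the CD4 array labelled knockout stood apart from the other 3. Another unconventional myosin, Myo10, had a like pattern at 433 and 81.5 (at least 4.61-fold lower), against 96.2 and 64.9.

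Adh1, an alcohol dehydrogenase that also oxidises retinol, read 1669 and 256 (6.53-fold lower), and L1cam, a neural adhesion molecule, 507 and 113 (4.47-fold lower). Lgmn (legumain), a lysosomal protease, read 883 and 215 (4.12-fold lower). Tspan32, a tetraspanin of blood cells, read 4596 in CD4 and 1139 in CD8 cells (4.04-fold lower), and on the arrays labelled wildtype 4694 and 1126 (4.17-fold lower). These 4 genes were lower in CD8 cells in both pairs.

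Pdlim4, a PDZ and LIM domain protein of the actin skeleton, read 5111 in CD4 and 1595 in CD8 cells (3.2-fold lower). Ecm1, a secreted matrix protein that T helper cells also make, read 1744 and 512 (3.41-fold lower), Ckb, the brain creatine kinase, 568 and 171 (3.32-fold lower), and Nfix, a nuclear factor I protein, 677 and 218 (3.11-fold lower). The call for Nfix rests on its probe sets: the log2 difference was -0.81 with the mean over probe sets, and without probe sets that match several transcripts the gene was under the floor on both arrays. Genes at the floor in CD8 cells included Ephb6, an ephrin receptor without kinase activity, at 326 and 67.3 (at least 3.48-fold lower), and St3gal2, a sialyltransferase, at 301 and 51 (at least 3.2-fold lower). Fbxo17, Blvrb, Tnnt1 and Dtx3, also under the floor in CD8 cells, read between 259 and 351 in CD4 cells.

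Leading genes on the CD8 side outside the lists belonged to varied classes. Racgap1, a GTPase-activating protein needed for cell division, read 235 in CD4 and 2698 in CD8 cells (11.5-fold). Slc25a53, a member of the mitochondrial carrier family, read 145 and 1432 (9.91-fold). Cxxc5, a CXXC zinc finger protein, read 151 and 977 (6.46-fold), and Reck, a membrane inhibitor of metalloproteases, 176 and 1086 (6.18-fold).

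Genes at the floor in CD4 cells included Ncf1 (p47phox), an organiser of the phagocyte NADPH oxidase, at 69.5 and 658 (at least 7.01-fold). Myo1f, a class I myosin of immune cells, read 24 and 577 (at least 6.14-fold), Nedd4, a ubiquitin ligase, 62.7 and 576 (at least 6.14-fold), and Haao, an enzyme of tryptophan breakdown, 8.2 and 521 (at least 5.55-fold). Zfp296, a zinc finger protein, read 67.9 in CD4 and 457 in CD8 cells (at least 4.86-fold). Of the myosin genes named, Myo6 and Myo10 were thus lower and Myo1f was higher in CD8 cells.

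Of genes that signal from the T cell receptor, 28 of 30 above the floor (93.3%) lay within 1.5-fold, against 87.3% of all genes, none was 2-fold apart, and the median was -0.13. Cd3e, Cd3d and Cd3g encode signalling chains of the receptor complex, and read 7468, 31670.2 and 13609.6 in CD4 cells and 6451, 30068 and 15399 in CD8 cells. Zap70, the kinase recruited to those chains, read 4804 and 4744, and Lat, the adaptor it phosphorylates, 17820.3 and 14893. The genes past 1.5-fold were both inhibitors. Ptpn22, a phosphatase that damps the signal, read 4124 in CD4 and 7211 in CD8 cells (1.75-fold higher), and Sla2, an adaptor that lowers receptor levels, 813 and 1291 (1.59-fold higher). At the other end was Cbl, a ubiquitin ligase that also damps the signal, at 1246 and 838 (1.49-fold lower).

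Of genes of the naive and quiescent state above the floor, 18 of 22 (81.8%) lay within 1.5-fold, against 87.3% of all genes, and the median was -0.15. Pdlim4, given above, was the list member at least 2-fold lower in CD8 cells. Igfbp4, which binds insulin-like growth factors and marks naive T cells, read 22009.6 and 14230.4 on the probe set used (1.55-fold lower). Its other 5 probe sets gave larger log2 differences, from -0.98 to -2.05, so the size depends on the probe set. Art4, a mono-ADP-ribosyltransferase, was the one at least 2-fold higher at 191 and 409.6 (2.14-fold). Foxo1, which maintains the naive state, read 3917 in CD4 and 3621 in CD8 cells, Bach2, a repressor of effector genes, 3525 and 3049.8, and Btg1, a factor of quiescence, 28763 and 24533. Btg2, its relative, was 1.5-fold lower in CD8 cells at 10482 and 6971.

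Immediate early genes, which respond within minutes to stimulation, leaned to the CD4 side without reaching 2-fold: 7 of 23 measured were lower in CD8 cells by 1.5-fold or more, and the median was -0.28. Over all genes the share that low was 5.64%. Nr4a1 (Nur77), an orphan nuclear receptor induced by the T cell receptor, read 3956 in CD4 and 2050.4 in CD8 cells (1.93-fold lower), and Dusp1, a phosphatase of MAP kinases, 9805 and 5210.1 (1.88-fold lower). Jun and Junb, parts of AP-1, read 8768 and 13953 in CD4 cells and 5226 and 8199.5 in CD8 cells, whereas their partner Fos was level at 20059 and 18348. Ier3, a stress-induced survival gene, was the exception on the CD8 side at 103 and 515 (5.01-fold).

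The share within 1.5-fold was near that of all genes (87.3%) in several families. It was 24 of 27 (88.9%) for interferon response genes and 10 of 12 (83.3%) for the BCL2 family. Mx1, a GTPase that blocks virus replication, was at least 2-fold higher in CD8 cells at 76.6 and 333 (at least 3.55-fold), while Irf7 read 1452 and 1199. Pmaip1 (Noxa), which opposes Mcl1, read 153 in CD4 and 843 in CD8 cells (5.52-fold), with Mcl1 itself at 15046 and 13345 and Bcl2 at 660.4 and 729. All 5 Gimap GTPases, which support lymphocyte survival, lay within 1.5-fold.

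Of 18 glycan enzymes above the floor, 15 (83.3%) lay within 1.5-fold. The sialyltransferases St3gal6 and St3gal2 stood on opposite sides: St3gal6 read 324 in CD4 and 906 in CD8 cells (2.8-fold higher), and St3gal2, given above, was lower. Among 9 regulators of G protein signalling, which end the signal of chemokine receptors, Rgs9 read 62 and 249 (at least 2.65-fold) and Rgs14 3984 and 2568 (1.55-fold lower). Of reported targets of Gfi1, 12 of 14 (85.7%) lay within 1.5-fold, as did 10 of 11 housekeeping genes (90.9%), both near the 87.3% of all genes; the housekeeping gene outside that range was the transferrin receptor Tfrc, at 1054 and 1852 (1.76-fold higher).

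**Figure D3:**
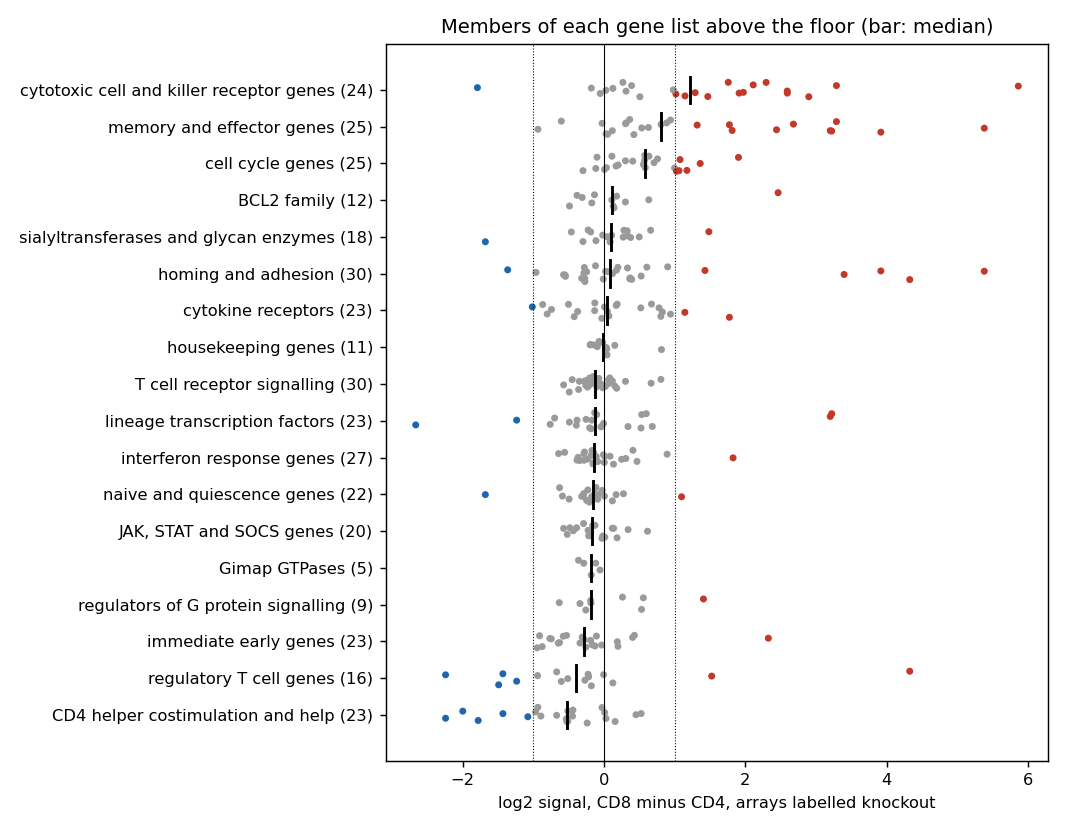
Log2 difference between the CD8 and the CD4 array labelled knockout (x axis) for each list member above the floor, with the number of such members in brackets and the list median as a bar; members at least 2-fold apart are coloured and dotted lines mark 2-fold. Of the lists shown, cytotoxic genes have the highest median (1.22) and helper genes the lowest (-0.52); vertical spread within a row has no meaning.

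Cell cycle genes were low in both subsets compared with their own signals in the other pair, and leaned to the CD8 side. Of 25 above the floor, 6 were at least 2-fold higher in CD8 cells and none was 2-fold lower, with a median log2 difference of 0.57. Over all genes 2.13% were that much higher and 1.41% that much lower. Birc5 (survivin), a mitotic survival protein, read 123 in CD4 and 461 in CD8 cells (3.74-fold), and Rrm2, which makes deoxyribonucleotides, 210.3 and 540.3 (2.57-fold). Mki67 (Ki-67), the usual marker of cycling cells, read 226 and 509.5 (2.26-fold). Replication licensing genes differed less, Mcm3 at 2203 and 2530 (1.15-fold higher) and Mcm2 at 1931 and 1571 (1.23-fold lower), and Pcna, the sliding clamp of replication, was level at 17361 and 17436. In the pair labelled wildtype the signals of Birc5 and Mki67 lay higher and their order was turned: Birc5 read 3230 in CD4 and 1325 in CD8 cells and Mki67 3361 and 1555.

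Genes of MHC class II presentation belong to antigen-presenting cells, and 4 of them were above the floor on both arrays and lower in CD8 cells. H2-Aa, H2-Ab1 and H2-Eb1 encode class II chains, and read 1357, 575 and 749 in CD4 cells and 379.5, 249 and 222 in CD8 cells. Cd74, the invariant chain that escorts them, read 1354 and 593 (2.28-fold lower). Among the 7 measured list members, 4 were lower by 2-fold or more and 1 was higher, against 1.41% and 2.13% of all genes. The higher one was H2-Oa at 629 and 1826 (2.9-fold), and the list median was -1.19. Without probe sets that match several transcripts the median is 0.053, because H2-Aa, H2-Ab1 and Cd74 then keep no probe set. H2-Eb1 keeps its probe set, with a log2 difference of -1.75. On the CD8 array labelled wildtype H2-Aa read 12284 and Cd74 16735, against 1254 and 1576 on its CD4 array.

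Markers of cells that carry class II lay under the floor in part. For dendritic and myeloid cells, 8 of 14 markers named on the array were at or under the floor on both arrays, Flt3, Xcr1, Itgam and Lyz2 among them, Itgax read 103 and 16.3, and the list's summed signal was 4807 on the CD4 array and 4551 on the CD8 array. Most of that sum was Cst3 (cystatin C), a widely expressed protease inhibitor, at 3452 and 3533. Fcgr3, an Fc receptor of myeloid and natural killer cells, was lower in CD8 cells like the class II genes, at 231 and 116 (1.98-fold lower), and so was the Fc receptor chain Fcer1g at 168 and 42.2 (at least 1.78-fold lower). Csf1r, a growth factor receptor of macrophages, was level at 197 and 202. Irf8, a factor of dendritic cells and B cells, read 298 and 309 on the probe set used. Its other probe set read 139 in CD4 and 306 in CD8 cells, a log2 difference of 1.14. Of 11 B cell markers named, 8 were at or under the floor on both, among them Ms4a1, Cd79a and Pax5, with sums of 17075 and 13741. Most of these sums was Ighm, the heavy chain of immunoglobulin M, at 16664 and 12666 on its brightest probe set. Cd22, an inhibitory receptor of B cells, was on the CD4 side at 154 and 76.3 (at least 1.64-fold lower). Cd79b, the partner of Cd79a in the B cell receptor, was on the CD8 side at 57.1 and 738 (at least 7.85-fold). Granulocyte markers were at or under the floor in 7 of 8 cases and red cell and platelet markers in 6 of 8. Over all genes, 4567 of 12393 were at or under the floor on both arrays, so a floored marker is common for any list. The part of other cells in the class II signal was not tested.

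**Figure D4:**
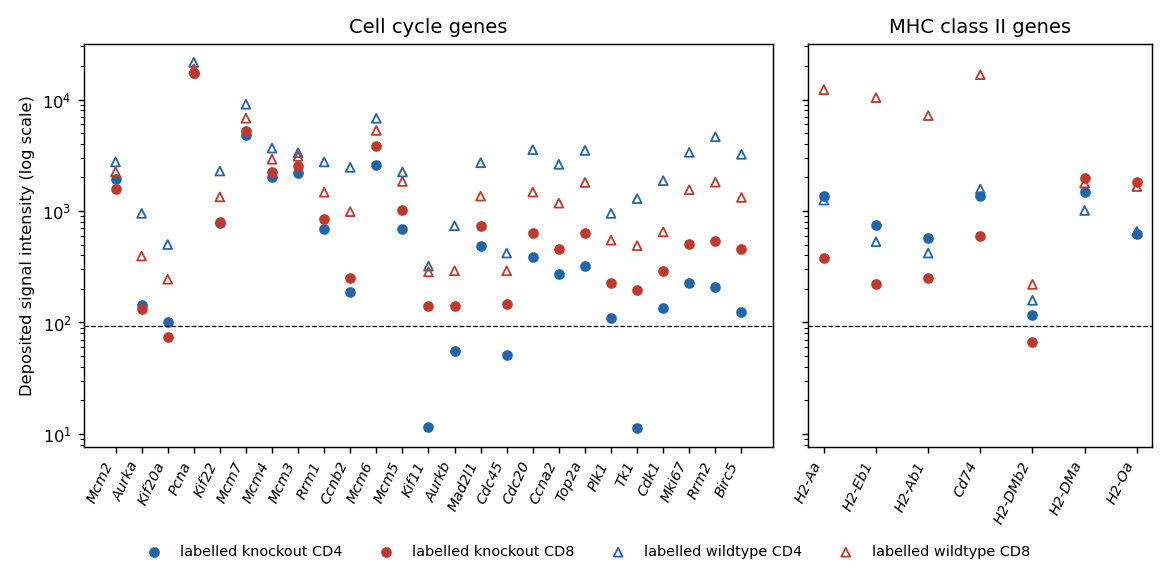
Signal on each of the 4 arrays (y axis, log scale) for the 25 cell cycle genes and the 7 MHC class II genes above the floor (dashed line) in the pair labelled knockout, ordered by their difference there; 1 point per array. Most cell cycle genes were higher in CD8 than in CD4 cells in the filled pair and lower in the open pair; H2-Aa, H2-Eb1, H2-Ab1 and Cd74 were highest on the CD8 array labelled wildtype.

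Part of the lineage difference was shared with the pair labelled wildtype, which shares no array with it. There, CD8 signal was 2-fold or more above CD4 signal for 270 of 8352 genes (3.23%) and as far below it for 433 (5.18%). The pairs had 58 of the higher genes in common, 34.7% of the 167 and 21.5% of the 270, and 47 of the lower genes, 42.7% of the 110 and 10.9% of the 433. Of the 167, 85 were at least 1.5-fold higher in the other pair as well (background there 9.03%) and 28 were at least 1.5-fold lower. The remaining 54 count as within 1.5-fold there, but 6 of these were at or under the floor on both of its arrays. Of the 110, 65 were at least 1.5-fold lower there (background 11.7%) and 11 were at least 1.5-fold higher. The remaining 34 count as within 1.5-fold, with 3 of these at or under the floor on both arrays of that pair. Of all 8352 genes there, CD8 signal was above CD4 signal by 1.5-fold or more for 9.03% and below it for 11.7%. Most genes thus lay within 1.5-fold there, which was less common among the 167 and the 110. Each of the 4 groups has 1 array, so the difference between the pairs was not tested.

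Shared genes included the coreceptors, Zbtb7b and Eomes; Zbtb7b read 587 in CD4 and 148 in CD8 cells labelled wildtype (3.96-fold lower), and Eomes 717 and 5659.5 (7.9-fold higher). Crtam, Klrd1, Ctsw and Cd7 were likewise higher in both pairs, by 9.41-fold, 4.55-fold, 3.53-fold and 3.85-fold in the pair labelled wildtype. Nkg7 was 3.25-fold higher there, at 4486 and 14569, so its CD8 signals were like in both pairs and its CD4 signals were far apart. Tbx21 and Il2rb had smaller differences there, Tbx21 at 2689 in CD4 and 3599 in CD8 cells (1.34-fold) and Il2rb at 6045 and 8128 (1.34-fold).

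The homing receptors had unlike values in the pairs. Cxcr3 read 13853 in CD4 and 12356 in CD8 cells labelled wildtype, and Cxcr6 12476 and 4323, where the CD4 signal was the higher one. Ccr9 read 2334 and 839, also higher in CD4. Itgae read 362 and 552 (1.53-fold higher in CD8), with the CD8 array labelled knockout above the other 3. Cd44 signal differed between the pairs as given above, and its part in these patterns was not tested.

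On the CD4 side, Izumo1r, Tnfrsf4 and Foxp3 were lower in CD8 cells in both pairs, by 12.9-fold, 8.12-fold and at least 8.77-fold in the pair labelled wildtype. The median of the regulatory list was -2.16 there against -0.39 here, and that of the helper list -1.44 against -0.52. Cytotoxic genes were on the CD8 side in both, with medians of 0.91 and 1.22, whereas memory and effector genes had a median of -0.21 there and 0.81 here. The lists were chosen with results of these arrays known, so these medians are a description.

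**Figure D5:**
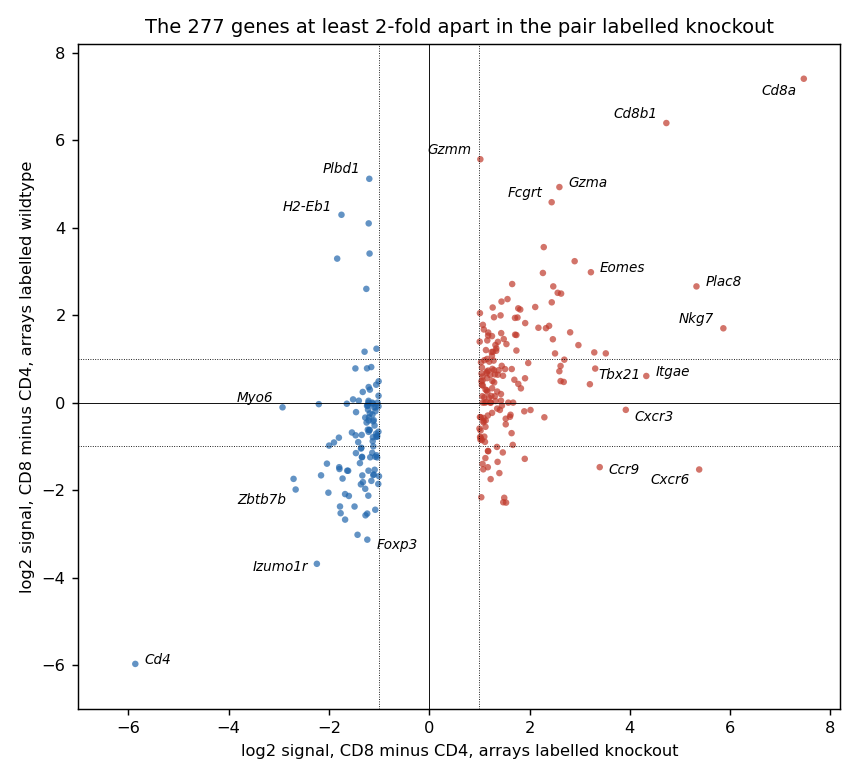
Log2 difference between CD8 and CD4 cells in the pair labelled knockout (x axis) and in the pair labelled wildtype (y axis) for the 277 genes at least 2-fold apart in the former; dotted lines mark 2-fold. Points at the upper right and lower left differed the same way in both pairs, and Cxcr6, Ccr9, H2-Eb1 and Plbd1 lie at the lower right or upper left.

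Probe sets gave a check within the comparison. Of 79 named genes at least 2-fold apart, 25 could be read on a further probe set, which had the opposite sign for 2 of them, Anp32a and Il10ra. Over all 2853 genes with several probe sets above the floor on both arrays, 100 had probe sets whose differences lay at least 2-fold apart. Signals of spiked control transcripts were slightly lower on the CD8 array, with a median log2 difference of -0.17 over the hybridization controls and -0.30 over the polyadenylated controls, where 27 of 27 probe sets were lower. A gene at the 2-fold threshold is therefore less firm than one at 4-fold, and the order of genes with like folds is not settled by 1 array a side.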

How the data were processed

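Total RNA, taken up in TRIzol per the labels' protocols, was converted to biotinylated cRNA and hybridised to 1 Affymetrix MOE430A_2.0 array per group. The authors deposited linear signal intensity values per probe set; GCOS 1.4 and MAS5 are the tools in the submitters' processing notes, and the sources used here give no other step. The 2% trimmed mean was near 1000 on each array, so values are comparable only if total RNA per cell is. Detection calls were not used.

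Of 22690 probe sets, 64 controls were left out, as were 691 with several gene symbols and 1555 not listed in the platform annotation supplied with the series. The 20380 with 1 symbol gave 12393 genes (20351 matched RefSeq, GRCm38.p6), each read on 1 probe set, that of highest mean log2 signal over the 4 arrays. Values below the 40th percentile of all values (93.9) were set to it before log2, and no fold is given with both arrays at the floor. A difference is CD8 minus CD4. No p-value was computed, since each group has 1 array; an additive model over all 4 arrays was not made. The number of arrays limits the precision. Alternatives covered the floor, a pseudocount of 16, normalization and the choice of probe set.

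The comparison and the 27 gene lists were chosen with earlier results of these data known. The genes named are Gfi1, Cd44 and the coreceptors; the 15 each way with the largest fold above the floor on both arrays and the 10 each way with the largest bound; all lineage factors and T cell receptor signalling genes; of other lists the 5 members with the largest fold and the 2 with the highest signal; and up to 5 genes each way of opposite direction in the pairs. Other genes given with values, such as Prf1, Ifng, Ndrg3 and further list members, were chosen after their values were seen. Promoter sequences are those of RefSeq, cut to the 250 bases before the start. The scripts were tested on simulated data. Python 3.11.15, numpy 2.4.6, pandas 2.3.3, scipy 1.17.1 and matplotlib 3.10.9 were used.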

Additional observations from a re-analysis of the deposited data

Results flagged for a closer look

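For 26 genes, CD8 and CD4 cells were 2-fold or more apart in each pair but in opposite directions. In the pair labelled knockout these were 18 of the 167 genes higher and 8 of the 110 genes lower in CD8 cells. Of the 26, 16 are among the 212 named genes. Some of the 16 were named because they were opposite in the pairs, so that count is no finding about the named genes. With 1 array per group the difference between the pairs was not tested. Values are log2 differences, CD8 minus CD4, first in the pair labelled knockout and then in the pair labelled wildtype.

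Among homing receptors, Cxcr6 had 5.38 (a lower bound) and -1.53, and Ccr9 had 3.40 and -1.48. Cell cycle genes were on the CD8 side in the pair labelled knockout: Birc5 had 1.90 and -1.29, Rrm2 1.36 and -1.35, Mki67 1.17 and -1.11, Cdk1, the kinase of mitotic entry, 1.08 and -1.53, and Tk1, a thymidine kinase, 1.06 (a lower bound) and -1.40. MHC class II genes were on the CD4 side there. H2-Aa had -1.84 and 3.29, H2-Eb1 -1.75 and 4.29, H2-Ab1 -1.21 and 4.10, and Cd74 -1.19 and 3.41.

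The other genes came from no list. Plbd1, a phospholipase B-like protein, read 215 in CD4 and 77 in CD8 cells labelled knockout and 103 and 3573 in those labelled wildtype, with differences of -1.20 (a bound) and 5.12. Alox5ap, which serves leukotriene synthesis, had -1.26 (a bound) and 2.60. Egln3, an oxygen-sensing prolyl hydroxylase, had 1.49 and -2.18. Trgv1, a variable segment of the gamma chain of the T cell receptor, had 1.53 (a lower bound) and -2.29. Anp32a, a nuclear phosphatase inhibitor, had 1.47 and -2.28 on the probe set used. Its other probe sets had the opposite sign in the pair labelled knockout, at -0.17 and -0.34.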

How the results depend on the processing

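The counts depended mostly on the floor. With the floor at the 25th percentile, 497 genes were at least 2-fold higher and 405 lower in CD8 cells, with 108 and 107 shared with the pair labelled wildtype. At the 60th percentile the counts were 53 and 30, with 28 and 12 shared. With log2 of the value plus 16 in place of a floor they were 886 and 851 (51.0% higher), with 197 and 193 shared, and with no floor 1471 and 1419 (50.9% higher), with 417 and 440 shared. Both admit genes whose signals are under the floor on both arrays. Quantile normalization gave 163 and 124, centring on medians 170 and 136, the mean over probe sets 138 and 79, genes above the floor on both arrays 118 and 76, and leaving out probe sets that match several transcripts 132 and 88. With the floor taken from the 2 arrays labelled knockout alone, the counts were 179 and 126.

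Of the 79 named genes at least 2-fold apart, 79 stayed so with the floor at the 25th percentile or absent. A lower floor cannot shrink the difference on a given probe set, so that count is no check. The count was 34 at the 60th percentile, 77 with log2 of the value plus 16, 78 after quantile normalization and 71 with the mean over probe sets. Under the last, Ahnak (0.67), Anp32a (0.32), H2-Ab1 (-0.90), Ifngr2 (-0.78), Il10ra (0.29), Nfix (-0.81), Rgs9 (0.70) and St3gal2 (-0.72) were no longer 2-fold apart. Without probe sets that match several transcripts, 58 of the 60 that kept a probe set were still 2-fold apart. Nfix was then under the floor on both arrays, and the difference of Anp32a turned from 1.47 to -0.34. The median of the MHC class II genes was then 0.053 in place of -1.19, but over fewer members. H2-Aa, H2-Ab1 and Cd74 kept no probe set. No array could be left out, because each group has 1. The number of arrays, and signals near background, limit every value.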

Other observations

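Some genes were at least 2-fold apart in the pair labelled knockout and within 1.5-fold in the pair labelled wildtype; the following were chosen after their values were seen, and the difference between the pairs was not tested. Ndrg3, a member of the N-myc downstream regulated family, read 5262 in CD4 and 2269.9 in CD8 cells labelled knockout and 1675 and 1724 in those labelled wildtype. Its CD4 signal labelled knockout was thus above the other 3 arrays, as for Myo6. Ggt5, a gamma-glutamyltransferase that acts on leukotrienes, read 681 and 237, against 113 and 119.

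Dntt (terminal transferase), an enzyme of thymocytes that adds bases at receptor gene joints, was above the floor in both subsets, at 192 in CD4 and 355 in CD8 cells labelled knockout. Rag1, Rag2 and Ptcra, other genes of thymocytes, were at or under the floor on both arrays. Nrp1, a semaphorin receptor of thymus-derived regulatory cells, was level at 505 and 419, against 3816 and 343 in the pair labelled wildtype.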
